A study of Mus musculus with 7 samples.

Results

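The ERK feedback genes were followed in cancer-associated fibroblasts (CAFs), the non-malignant mesenchymal cells of a tumor. The set holds 10 genes chosen by name: the phosphatases Dusp4, Dusp5 and Dusp6, the Sprouty genes Spry1, Spry2 and Spry4, the Sprouty relative Spred3, the transcription factor genes Etv4 and Etv5, and the kinase gene Map3k1. All 10 were present among the 12771 genes counted. The CAFs came from orthotopic pancreatic tumors of male C57BL/6 mice aged 8 weeks at injection, taken 2 to 3 weeks after injection of KPC cells. KPC is a mouse pancreatic cancer line, and the cells carried a lentiviral short hairpin RNA against Brca2 (shBrca2, 4 libraries, replicates 1 to 4) or a non-targeting hairpin (shControl, 3 libraries, replicates 1, 2 and 4), with puromycin selection in both arms. The fibroblasts belonged to the host and carried no hairpin, each library came from a separate mouse, and the study's methods name a single hairpin source for each arm. Live podoplanin-positive cells that lacked CD45, CD31 and EpCAM were sorted, and the 3' ends of their poly(A) RNA were sequenced.

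ERK is the last kinase of the RAS, RAF and MEK cascade, which carries growth factor signals to the nucleus. Active ERK switches on genes whose products dampen the same cascade, and the transcripts of these genes are widely read as a record of recent ERK activity. The dual-specificity phosphatases remove the activating phosphates from MAP kinases, Sprouty and SPRED proteins act between receptor and RAF, and ETV4 and ETV5 are ETS factors that stand downstream of ERK. In fibroblasts the pathway is driven by FGF, PDGF and EGF family ligands. The same transcripts are also found in tumor cells.

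Total counts ran from 1898679 to 5990579 per library, and the 10 genes had between 3 and 314 counts in any library, so their values carry appreciable counting error. Brca2, the target of the hairpin in the cancer cells, had 8.64 to 17.7 normalized counts (counts divided by a library size factor) with overlapping groups, and in these host cells it does not report the knockdown. The fibroblast markers Col1a1, Col1a2, Col3a1, Pdgfra, Pdpn, Fap and Thy1 were not called different between the groups. Even so, Col3a1 had a log2 fold change of -0.44 (DESeq2 unadjusted p = 0.015), and Pdpn had all shBrca2 libraries below all controls. Dcn and Lum were called lower in shBrca2 (with edgeR only Lum), and 8 of the 10 fibroblast markers had a log2 fold change below 0. The summed fibroblast markers were 35670 to 39980 CPM (counts scaled to a common library total) in shControl and 31000 to 34380 in shBrca2. These are bulk samples, in which fewer cells of a type and less RNA per cell cannot be told apart.

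Promoter sequences are shown for 3 of the genes, because they set the phosphatase pair Dusp5 and Dusp6 beside Spry2, the 1 gene of the set that was called lower. RefSeq windows of 300 bases, 250 before and 50 after an annotated start on GRCm38.p6, were at hand for 7 of the 10 genes. Both strands were searched for the PEA3-type ETS core AGGAAG, the ETS site CCGGAAG, the AP-1 site TGANTCA, the cAMP response element TGACGTCA, and the CArG box, the site of serum response factor. The CArG box was added after the sequences had been read, and none of these motifs contains another. Capitals mark every match in the lines that follow, which run 5' to 3' along the coding strand.
Dusp5, chr19:53528895-53529194, plus strand: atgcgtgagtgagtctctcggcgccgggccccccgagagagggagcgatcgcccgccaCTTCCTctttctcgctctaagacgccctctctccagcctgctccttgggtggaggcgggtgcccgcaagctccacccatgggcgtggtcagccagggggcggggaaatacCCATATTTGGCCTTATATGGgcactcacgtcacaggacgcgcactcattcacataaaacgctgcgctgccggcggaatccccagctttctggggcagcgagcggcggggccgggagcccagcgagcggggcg
Dusp6, chr10:99262981-99263280, plus strand: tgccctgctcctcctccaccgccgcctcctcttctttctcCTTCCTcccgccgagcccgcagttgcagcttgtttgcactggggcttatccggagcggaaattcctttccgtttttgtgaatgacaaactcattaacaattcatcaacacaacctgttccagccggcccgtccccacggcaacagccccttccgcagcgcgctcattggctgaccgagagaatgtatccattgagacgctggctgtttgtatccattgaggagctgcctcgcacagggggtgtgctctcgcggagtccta
Spry2, chr14:105896770-105897069, minus strand: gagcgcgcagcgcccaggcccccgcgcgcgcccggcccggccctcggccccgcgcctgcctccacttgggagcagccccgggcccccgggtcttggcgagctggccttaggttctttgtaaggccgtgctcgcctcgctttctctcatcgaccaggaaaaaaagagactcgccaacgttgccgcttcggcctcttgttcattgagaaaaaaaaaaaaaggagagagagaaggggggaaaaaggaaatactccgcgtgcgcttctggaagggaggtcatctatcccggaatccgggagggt

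The Dusp5 window held 1 PEA3-type core with its first base at -192, read on the opposite strand, and 2 adjacent CArG boxes starting at -82 and -72, counted from the annotated start. The Dusp6 window held 1 PEA3-type core at -210, also on the opposite strand. No match lay in the windows of Spry1, Spry2, Spred3 and Map3k1, and 1 of the windows of Etv5 held a PEA3-type core. Over all 32851 RefSeq windows of this length, 35.4% held a PEA3-type core, 8.86% the longer ETS site, 7.81% an AP-1 site, 1.79% a cAMP response element and 1.63% a CArG box. A match describes letters only, and an absent match says nothing of the factor.

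To compare CAFs from shBrca2 and shControl tumors, all genes were fitted together, and a gene was called when it met 3 thresholds, an adjusted p under 0.1, an absolute log2 fold change (log2FC) over 0.5 and a mean normalized count over 5. By this rule 5 genes of the set were called higher in shBrca2 CAFs (Map3k1, Dusp4, Dusp6, Spred3 and Etv4), Spry2 was called lower, and Dusp5, Spry1, Spry4 and Etv5 were not called. Over all 12768 tested genes 9.04% were called, 3.77% higher and 5.27% lower. The genes were put together with this comparison known, so the count and the fold changes are a description, no p is given for them, and nothing is read from the count. The 5 genes called higher had all 4 shBrca2 libraries above all 3 shControl libraries, as 7.79% of all genes did, and Spry2 had them all below, as 9.3% did. Each log2FC is shBrca2 over shControl, with its standard error (SE), and group means are given ± SD with n = 3 for shControl and n = 4 for shBrca2. Values per library follow the order shControl replicates 1, 2 and 4, then shBrca2 replicates 1 to 4. The median log2FC over the 10 genes was 0.87, beside 0.01 over all tested genes.

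**Figure D1:**
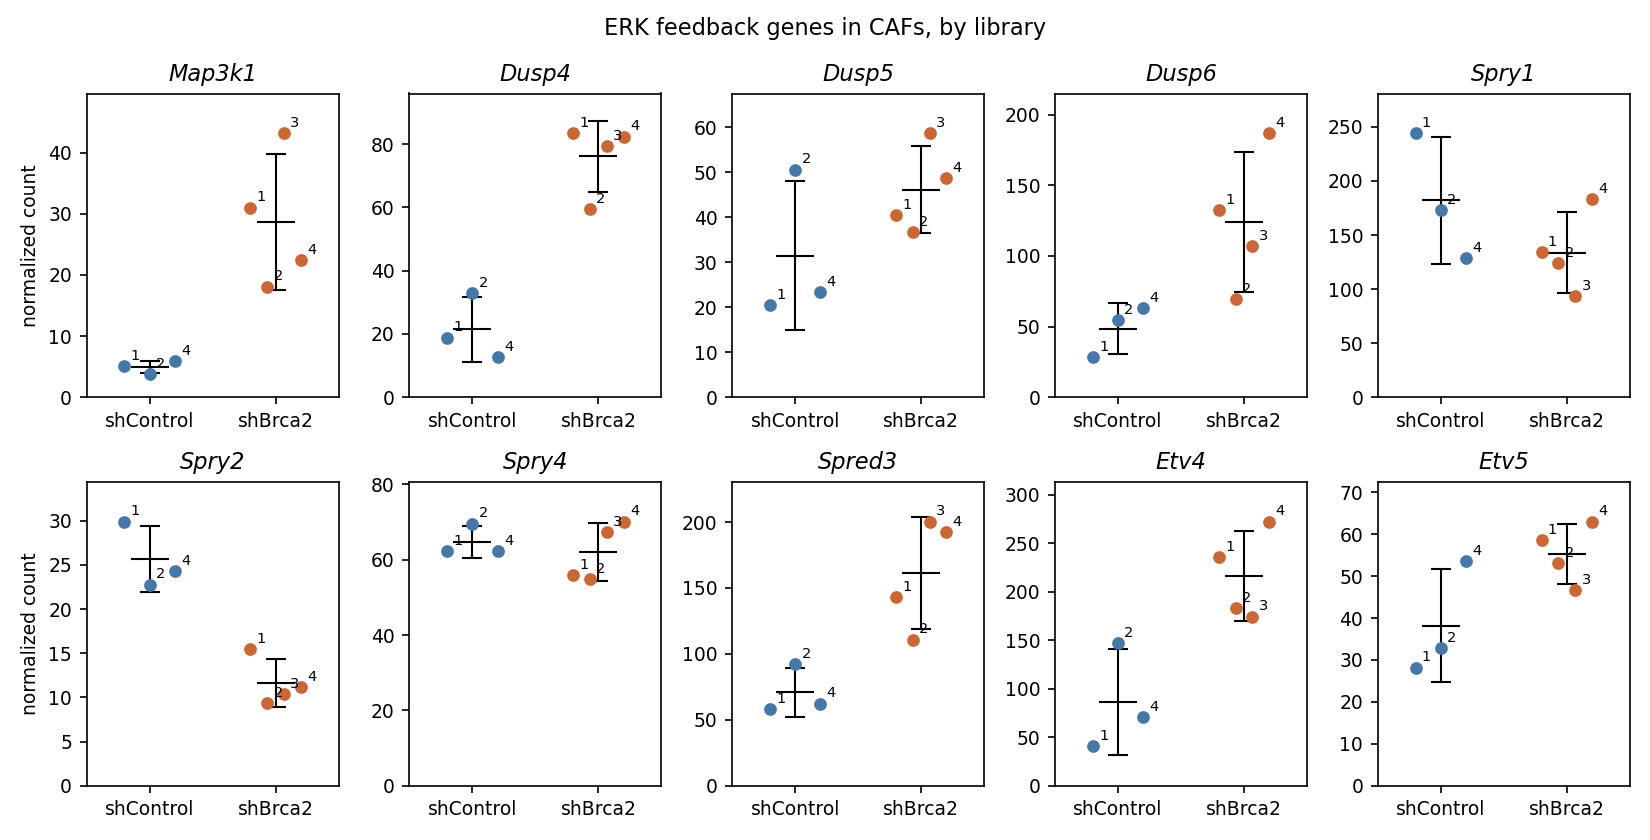
Normalized counts (vertical axes, from 0) of the 10 ERK feedback genes in the 3 shControl and 4 shBrca2 libraries. Each point is a library with its replicate number, and the bar and whiskers are the group mean and SD. Map3k1, Dusp4, Dusp6, Spred3 and Etv4 are separated upward and Spry2 downward.

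Map3k1 (chromosome 13, 111746428 to 111818269) encodes a MAP kinase kinase kinase that can feed the JNK, p38 and ERK arms. It acts upstream of these kinases and is called an ERK feedback gene here by the name of the set only. It had the largest fold of the set. It had 5.13, 3.80 and 5.84 normalized counts in the controls, against 31, 18.1, 43.2 and 22.4 with shBrca2. The groups did not overlap, and the lowest shBrca2 library, replicate 2, was still well above the highest control. The log2FC was 2.48 (SE 0.54), a 5.58-fold difference. The counts behind it were few, 15 over the 3 controls together and 114 over the 4 shBrca2 libraries.

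The phosphatases differed among themselves. Dusp4 (chromosome 8, 34807610 to 34819894) encodes a nuclear phosphatase of ERK, JNK and p38. It had 18.8, 32.9 and 12.7 normalized counts in the controls, against 83.5, 59.5, 79.5 and 82.3 with shBrca2. Replicate 2 was the highest control and the lowest shBrca2 library, so the groups were closest there and still did not meet. The log2FC of Dusp4 was 1.86 (SE 0.33), a 3.62-fold difference.

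Dusp6 (chromosome 10, 99263231 to 99267489) encodes a cytoplasmic phosphatase that acts on ERK and binds it closely, and its transcript is the usual readout of the pathway. It had 28.2, 54.4 and 63.2 normalized counts in the controls, against 132.5, 69.4, 107.1 and 187 with shBrca2. The groups came closest at shControl replicate 4 and shBrca2 replicate 2, and both groups varied widely, with coefficients of variation of 37.5% and 39.8%. The log2FC of Dusp6 was 1.36 (SE 0.37), a 2.56-fold difference.

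Dusp5 (chromosome 19, 53529145 to 53541809) encodes a nuclear phosphatase of ERK and was not called. It had 20.5, 50.6 and 23.4 normalized counts in the controls, against 40.5, 36.7, 58.7 and 48.8 with shBrca2. A single control, replicate 2, lay within the shBrca2 range, and the other controls lay below all of it. The log2FC of Dusp5 was 0.56 (SE 0.36). Without shControl replicate 2 it rose to 1.05, past the thresholds, and leaving out shControl replicate 1 instead gave 0.32.

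The Sprouty genes, inhibitors of receptor tyrosine kinase signaling, did not follow the phosphatases. Spry2 (chromosome 14, 105891947 to 105896819) had 29.9, 22.8 and 24.3 normalized counts in the controls, against 15.5, 9.33, 10.4 and 11.2 with shBrca2. All shBrca2 libraries were below all controls, with a log2FC of -1.15 (SE 0.41). The counts were 6 to 35 per library. The call of Spry2 rested on all 7 libraries: leaving out any single library of either group kept the log2FC between -1.34 and -1.02 but ended the call.

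Spry1 (chromosome 3, 37639947 to 37644599) had 244.3, 173.3 and 128.4 normalized counts in the controls, against 134.2, 124.2, 93.3 and 183 with shBrca2. The groups overlapped, and the log2FC of -0.44 had a standard error of 0.28. Without shControl replicate 1, the highest library, it was -0.16. Spry4, on chromosome 18, varied least of the 10 genes, at 62.4, 69.6 and 62.3 normalized counts in the controls against 55.9, 54.8, 67.4 and 70.1 with shBrca2. Its log2FC was -0.07 (SE 0.24), so the estimate lay within 1 standard error of 0.

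Spred3 (chromosome 7, 29157783 to 29170070) encodes a Sprouty-related protein with an EVH1 domain that restrains RAS to ERK signaling. It had 58.1, 92.4 and 62.3 normalized counts in the controls, against 142.9, 110.7, 200.3 and 192.1 with shBrca2. As for Dusp4, replicate 2 was the highest control and the lowest shBrca2 library. The log2FC was 1.19 (SE 0.28), a 2.28-fold difference, so this gene and Spry2 were called in opposite directions.

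Of the PEA3 factors, Etv4 was called and Etv5 was not. Etv4 (chromosome 11, 101769747 to 101785310) had 41, 146.7 and 71 normalized counts in the controls, against 235.8, 183, 174.4 and 272.4 with shBrca2. The controls differed more among themselves than for any other gene of the set, with a coefficient of variation of 63.2%, and replicate 2 came close to the shBrca2 range. The log2FC was 1.34 (SE 0.35), and leaving out 1 control gave values from 1.0 (replicate 1 out) to 1.96 (replicate 2 out). Etv5 (chromosome 16, 22381313 to 22439570) had 28.2, 32.9 and 53.5 normalized counts in the controls, against 58.5, 53, 46.6 and 63 with shBrca2. Only shControl replicate 4 lay within the shBrca2 range, and the log2FC of Etv5 was 0.54 (SE 0.30). It was 0.87 without shControl replicate 4 and not called there either.

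The 7 libraries ranked the genes unevenly. shControl replicate 1 was the lowest library for 5 genes of the set (Dusp5, Dusp6, Spred3, Etv4 and Etv5) and the highest for Spry1 and Spry2. shBrca2 replicate 4 was the highest for Dusp6, Spry4, Etv4 and Etv5, and shBrca2 replicate 3 for Dusp5, Spred3 and Map3k1. The 5 genes called higher were called in all 12 alternative fits, and their log2FCs with single libraries left out stayed between 1.0 and 2.67.

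**Figure D2:**
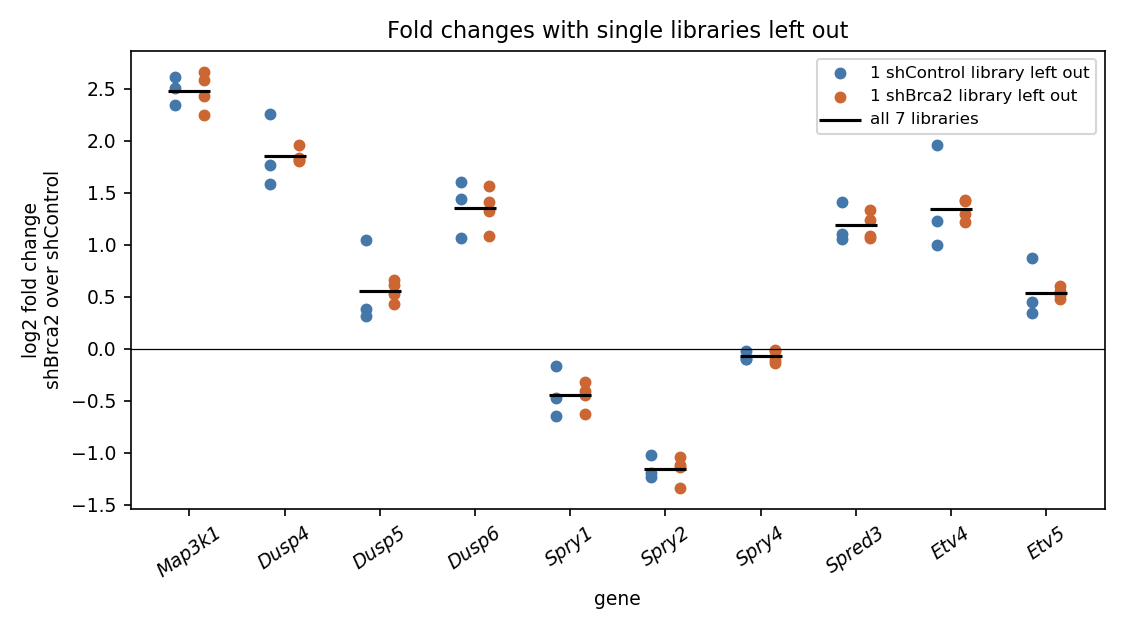
Log2 fold change of shBrca2 over shControl (vertical axis) for each ERK feedback gene with all 7 libraries (bars) and with 1 shControl or 1 shBrca2 library left out (points). No point crosses 0, and Spry1 and Spry4 come nearest to it, at -0.16 and -0.01.

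Relatives of these genes outside the set were compared next, from a list of 17 other MAP kinase phosphatase, Sprouty, SPRED, ETV1 and MAP3K genes. Of the 16 tested, 1 rose, 1 fell and 14 did not pass, which is 12.5% called beside 9.04% of all genes, and the median log2FC was 0.07. Dusp2, an immediate early phosphatase of ERK and p38, fell from 62.3 ± 15.2 to 23.6 ± 2.67 normalized counts (log2FC -1.41, SE 0.30, DESeq2 adjusted p = 0.00021). It stayed called in all 12 alternatives. Dusp14, a small phosphatase, rose from 78.9 ± 28.6 to 140.2 ± 30.4, a log2FC of 0.84 at DESeq2 adjusted p = 0.045, and was not called without shControl replicates 1 or 2 or shBrca2 replicates 2 or 4. Dusp1, the stress-induced phosphatase of p38 and JNK, did not pass (log2FC -0.25, DESeq2 adjusted p = 0.64), and neither did Spred1 (0.39, DESeq2 adjusted p = 0.37) or Spred2 (0.57, DESeq2 adjusted p = 0.62). Etv1, the third PEA3 factor, had 0 to 10 counts per library and its log2FC of 1.33 had a standard error of 1.17.

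**Figure D3:**
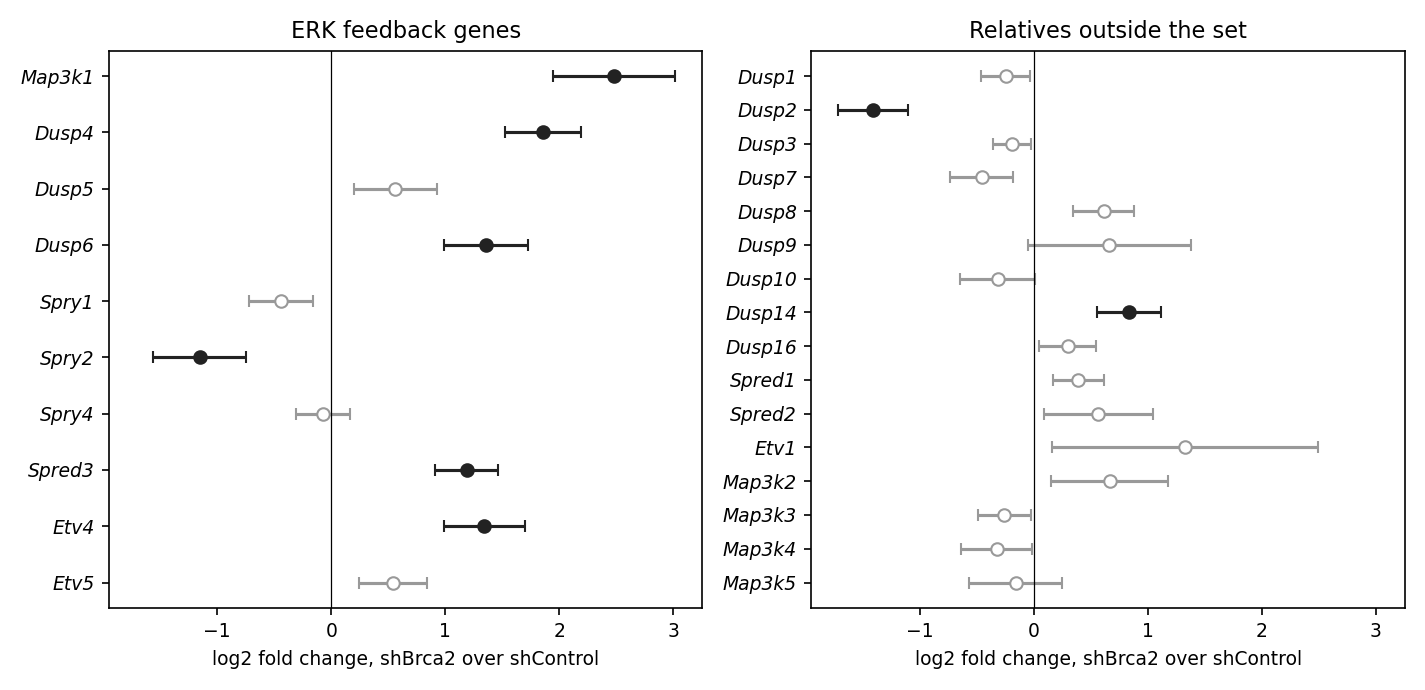
Log2 fold change of shBrca2 over shControl with its standard error (horizontal axes) for the 10 ERK feedback genes (left) and 16 relatives (right). Filled points met the thresholds of the test over all genes and open points did not; Dusp2 lies at -1.41 and Dusp14 at 0.84, and the other relatives are open.

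The cascade that the phosphatase, Sprouty and SPRED genes of the set feed back on was read next. Of 26 genes for adaptors, RAS, RAF, MEK, ERK, scaffolds and RAS GTPase activators, 2 rose, 1 fell and 23 did not pass, which is 11.5% called beside 9.04% of all genes, with a median log2FC of 0.05. Map2k1, which encodes MEK1, rose from 256.6 ± 22.7 to 406.4 ± 57.1 normalized counts (log2FC 0.67, SE 0.18, DESeq2 adjusted p = 0.0054). Its call was lost without shControl replicate 4. Ksr1, a scaffold that brings RAF, MEK and ERK together, fell from 279.8 ± 12.9 to 149.7 ± 24.7, a log2FC of -0.91 at DESeq2 adjusted p = 5.8e-05, and stayed called in all 12 alternatives. Rps6ka1, which encodes the ERK-activated kinase RSK1, was called at a log2FC of 1.08 with groups that overlapped (DESeq2 adjusted p = 0.085), and 7 of 12 alternatives did not call it. These were the edgeR test, the replicate block and the fits without shControl replicates 1 or 2 or shBrca2 replicates 1, 3 or 4.

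MAP3K1 is known to act on the JNK and p38 kinases through MKK4 and MKK7. DESeq2 called 0 of 12 tested genes of that arm, beside 9.04% of all genes, and edgeR also called 0. In DESeq2 1 gene of the 12 had an unadjusted p under 0.05, as did 2262 of all 12768 tested genes, and the median log2FC of the 12 was 0.11. Nothing is read from 0 calls in so short a list. Map2k4, which encodes MKK4, had 90.1 ± 20.9 normalized counts in control CAFs against 122.1 ± 10.5 in shBrca2 CAFs with no overlap, a log2FC of 0.44 at DESeq2 adjusted p = 0.29. The JNK gene Mapk9 went the other way, from 110.2 ± 6.5 to 85.95 ± 8.38 with no overlap. Its log2FC was -0.38 at DESeq2 adjusted p = 0.32. Without shControl replicate 4 a single gene of this list was called, the p38 delta gene Mapk13.

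Of 22 other transcripts known to follow ERK activity, 3 rose, 1 fell and 18 did not pass, which is 18.2% called beside 9.04% of all genes, with a median log2FC of 0.19. In DESeq2 9 of the 22 had an unadjusted p under 0.05, as did 2262 of all 12768 tested genes. Plaur, the urokinase receptor gene, rose from 402.1 ± 125.1 to 792.7 ± 85.5 normalized counts (log2FC 0.98, SE 0.22, DESeq2 adjusted p = 0.00047). Hmga2, which encodes an architectural chromatin protein, rose at a low level, from 3.60 ± 1.18 to 17.4 ± 3.47, a log2FC of 2.25 at DESeq2 adjusted p = 0.0029, and was not called with the replicate block. Ereg, an EGF receptor ligand gene, rose by a log2FC of 1.19 at DESeq2 adjusted p = 0.035 and was not called without shControl replicate 4 or shBrca2 replicate 2. Myc was called lower, at 1384 ± 727.5 in shControl and 445.7 ± 173.6 in shBrca2 with overlapping groups (log2FC -1.64, DESeq2 adjusted p = 0.040), and its call was lost without shControl replicates 1 or 4 or shBrca2 replicate 4. Several of the best known ERK targets did not pass: Phlda1 (log2FC -0.59, DESeq2 adjusted p = 0.20), Ccnd1 (-0.20, DESeq2 adjusted p = 0.78), Epha2 (0.57, DESeq2 adjusted p = 0.23), Fosl1 (0.61, DESeq2 adjusted p = 0.23) and Egr1 (-0.51, DESeq2 adjusted p = 0.13). Among these, Fosl1 had all shBrca2 libraries above all controls. Spp1 did not pass either (0.83, DESeq2 adjusted p = 0.11), but was called in some alternatives, among them the Wald test and the low-count filter.

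The tumors were dissociated with enzymes before sorting, a step known to induce immediate early genes. Of 14 such genes DESeq2 called 0, beside 9.04% of all genes, and edgeR also called 0. In so short a list 0 calls lie near that share, and nothing is read from them. In DESeq2 5 of the 14 had an unadjusted p under 0.05, as did 2262 of all 12768 tested genes, and the median log2FC of the 14 was -0.11. The 5 went both ways: Hspa1b, Hspa1a and Jund had log2FCs of 0.91, 0.74 and 0.71, and Egr1 and Junb of -0.51 and -0.44. Fos, Fosb and Jun had log2FCs of -0.10, -0.12 and -0.02, with standard errors of 0.17, 0.19 and 0.19. Without shControl replicate 2 or without shBrca2 replicate 3, Jund was called higher and Egr1 lower. Without shControl replicate 4 Btg2 was called higher, and without shBrca2 replicate 2 Hspa1a and Hspa1b were called higher and Junb lower.

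FGF signaling is an input that Sprouty and ETV genes are known to follow. Of 15 tested genes for FGF ligands, receptors, FLRT proteins and the adaptor FRS3, 2 rose, 2 fell and 11 did not pass, which is 26.7% called beside 9.04% of all genes, with a median log2FC of -0.29. The ligand genes Fgf18 and Fgf7 fell, by log2FCs of -1.30 and -1.27 (DESeq2 adjusted p = 3.3e-06 and 0.0073). Fgf18 had 372.5 ± 33.3 normalized counts in control CAFs against 151.3 ± 41.7 in shBrca2 CAFs, and stayed called in all 12 alternatives, while Fgf7 was not called without shControl replicate 1. Flrt2, which encodes a membrane protein that binds FGF receptors, rose by 0.82 (DESeq2 adjusted p = 0.0022). Fgfr2 rose from 36.7 ± 13.4 to 79.3 ± 22.2, a log2FC of 1.11 at DESeq2 adjusted p = 0.031, with overlapping groups, and was not called without shControl replicate 1 or shBrca2 replicates 1 or 4. Fgfr1, the main FGF receptor gene of fibroblasts, had a log2FC of -0.03 (SE 0.21).

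The genes whose pattern over the 7 libraries was most like that of Dusp6 were found by the root mean square distance between centered log2 values, over 6734 other genes with a mean normalized count over 50. They were Fgfr2 at a distance of 0.23, the keratin gene Krt18 at 0.29, Prxl2a and Tuft1 at 0.30 each, and the RAS effector gene Rin1 at 0.31, where the median over all those genes was 0.86. Of the set itself, Spred3 and Etv4 were nearest to Dusp6, at 0.41 and 0.43, and Spry2 was farthest at 1.31.

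**Figure D4:**
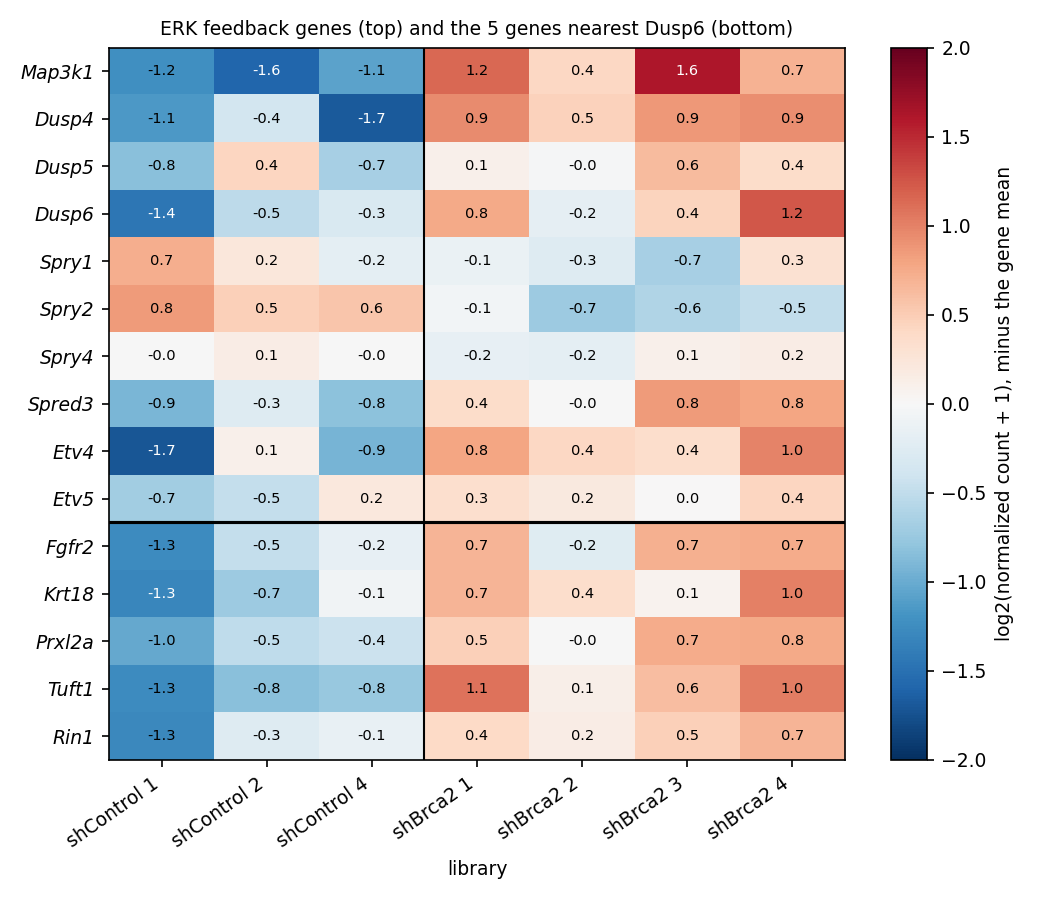
Log2(normalized count + 1) minus the gene's mean over the 7 libraries (color scale and printed values) for the 10 ERK feedback genes and the 5 genes nearest Dusp6 (rows) in each library (columns). shControl replicate 1 is the lowest library for Dusp6 and its 5 neighbors, and the highest for Spry1 and Spry2.

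Markers of the other cell types that the sort could hold were read in each library. Of 12 epithelial markers, 8 were in the table, and 5 of the 8 rose: Krt7, Krt8, Krt18, Krt19 and Sox9, with log2FCs from 1.0 to 1.58. With edgeR 4 of the 8 were called, without Krt19. The summed level of the 8 was 132.4 to 341.7 CPM in shControl and 461.7 to 671.1 in shBrca2, without overlap. Of the defining markers, Cdh1 had 1 to 17 counts per library and was not called, at a log2FC of 1.59 (SE 0.71) with all shBrca2 libraries above all controls. Cldn7 had 0 to 9 counts per library, Muc1 had a log2FC of 0.01 (SE 0.36), and Epcam, Cldn4, Ocln and Esrp1 were not analysed here. Krt8, Krt18 and Krt19 are also made by mesothelium. Dusp6 ranked the 7 libraries in exactly the order of the summed epithelial markers, within both groups as well as between them. This order was shared by 10 genes, 0.0783% of all tested genes. It needs all shBrca2 libraries above all controls, as 994 genes had, so the fitting comparison is 10 of those 994 genes. The match was noticed after the values were seen, with 7 marker lists compared, and nothing is read from it. None of the other 9 genes of the set shared the order. The part of epithelial cells in the values of Dusp6 and the other genes was not tested.

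Mesothelial markers summed to 253.3 to 816.6 CPM in shControl and 685.1 to 886.4 in shBrca2, with overlap, and Calb2 and Krt19 were called of 8 in the table. The other defining markers Msln, Upk3b, Wt1 and Lrrn4 did not pass, and Calb2 was at 0 in all 3 controls. Msln still had all shBrca2 libraries above all controls, at a log2FC of 0.89 (SE 0.55). Wt1, Upk3b and Lrrn4 overlapped, at log2FCs of 0.15, -0.40 and -0.09. Immune markers summed to 83 to 89.9 and 120.1 to 141.6 without overlap: of 5 tested, the macrophage genes Csf1r and C1qa rose, Jchain fell, and Cd68 and Lyz2 did not pass, while Ptprc, Adgre1, Cd3e and Cd79a were not analysed here. The separation of the sums came from Csf1r, at a mean of 112.5 normalized counts in shControl and 248.2 in shBrca2. Of the 5 tested, 3 had a log2FC below 0. Ngp and S100a9, also in the sum, reached 59 and 94 counts in shBrca2 replicate 2 alone. With edgeR C1qa was not called. Pericyte sums were 115.4 to 132 and 116.3 to 173.7 with overlap, and Notch3 was the 1 gene of 7 that rose. Endothelial sums were 20.4 to 34.8 and 25.8 to 36.4, and Schwann cell sums 5.53 to 14.6 and 5.79 to 15.5, with 0 genes called by DESeq2 in either list and 2 and 1 at an unadjusted p under 0.05. Of the 4 endothelial markers only Kdr overlapped, and Pecam1, Tek and Vwf had all shBrca2 libraries below all controls, with log2FCs of -3.60, -1.55 and -1.11 and counts of 0 to 14, 4 to 33 and 2 to 8 per library. Pecam1 had a DESeq2 adjusted p of 0.031 and a mean normalized count under 5. With edgeR 0 Schwann genes were called and 1 endothelial gene, Tek, was called lower. The part of these cells in the values of the ERK feedback genes was not tested.

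**Figure D5:**
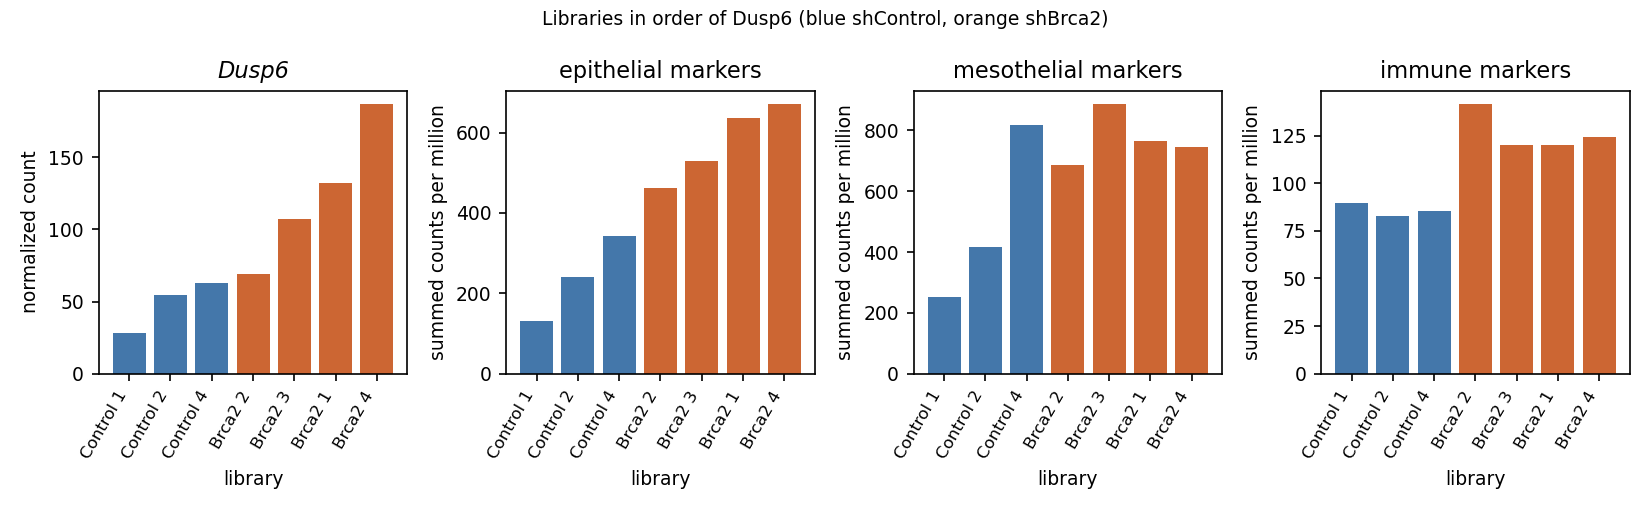
Normalized counts of Dusp6 and summed CPM of the epithelial, mesothelial and immune marker lists (vertical axes, from 0) in each library, ordered by Dusp6. The epithelial bars rise in the same order as Dusp6, from 132.4 to 671.1 CPM, and the mesothelial and immune bars do not.

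In GENCODE vM39, on the later build GRCm39, 7 of the 10 genes share exon bases with a gene on the opposite strand, from 312 bases in Etv4 to 909 in Spry1, and Dusp6 shares 779 of 3391. Map3k1, Dusp4 and Spry4 share none. The strand setting of the counting is not given in the sources used here, and the values of the 7 genes that share bases are uncertain to that extent.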

How the data were processed

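RNA of sorted CAFs from 3 shControl and 4 shBrca2 tumors was sequenced at the 3' end with a variant of MARS-seq. The authors deposited whole-number counts per gene symbol, not normalized, with 1 column per library. The submitters' processing notes name bcl2fastq, cutadapt, STAR 2.4.2a, HTSeq, DESeq2 and mm10. The annotation, the strand setting and the collapsing of molecular barcodes are not given in the sources used here, so counts may include PCR copies. No listed gene had a maximum below 6 counts over the libraries.

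Here, DESeq2 1.42.0 (R 4.3.3) was fitted to all genes and libraries with its own size factors, and group was tested by likelihood ratio, as in the study's methods; 3 genes received no adjusted p. Fold changes were not shrunken. The members and gene lists were chosen with earlier results of these data known; the genes named are the 10 members, the called genes of 6 pathway lists, family relatives, defining markers of 7 cell lists, and the 5 genes nearest each of Dusp6, Map3k1 and Spry2. Other uncalled list genes were picked after their values were seen. Distances used log2(normalized count + 1). Of 12 alternatives, 7 left out a library; the others were edgeR 4.0.16, the Wald test, TMM factors, a low-count filter and a replicate block. Every pair of libraries differed by more than sampling noise (lowest mean chi-square per gene 3.35). The code was tested on simulated data. Positions are from RefSeq on GRCm38.p6, the assembly of mm10.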

Additional observations from a re-analysis of the deposited data

Results flagged for a closer look

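Dusp4 in shBrca2 replicate 2, at 59.5 normalized counts, stood apart from the other shBrca2 libraries at 79.5 to 83.5, with a gap to its neighbor that took 0.832 of the group's range; a sample this far from the rest of 4 passes Dixon's 95% critical value. It was the 1 such case among the shBrca2 groups of the 10 genes, and the shControl groups of 3 libraries were not checked. About 5% of groups are picked out in this way by chance.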

How the results depend on the processing

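Of 120 log2 fold changes of the 10 genes under the 12 alternatives, 119 stayed within 1 SD of the main value, 1 moved by more (Etv5 at 0.87 without shControl replicate 4), and the sign changed in 0 of them. The SD is the pooled spread of libraries within groups. The Wald test keeps the main log2 fold change, and every alternative shares most libraries with the main fit. Moves past 1 SD were therefore unlikely from the start, and this count is no test of robustness. The 5 genes called higher stayed called throughout, and Dusp5 joined them in 1 fit, without shControl replicate 2. The number called lower went from 1, Spry2, to 0 in each fit without 1 library and with the replicate block. Low counts limit Spry2 and Map3k1 most.

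Without single libraries, all genes called higher numbered 261 to 610 (481 with all libraries) and lower 354 to 695 (673). Relatives called higher numbered 0 to 1 and lower 1 to 2, cascade genes higher 1 to 2, JNK and p38 genes higher 0 to 1, other ERK targets higher 2 to 5 and lower 0 to 2, FGF genes higher 1 to 3 and lower 1 to 2, and dissociation genes higher 0 to 2 and lower 0 to 1. With edgeR 1 cascade gene, Map2k1, was called higher, not 2. The cause of these moves was not tested, beyond the smaller number of libraries.

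The replicate numbers were not used as pairs in the main fit, and the labels do not say what they stand for. Same-numbered libraries deviated apart (r = -0.13, -0.17 and -0.18 across genes, which are not independent replicates) and no library correlated best with its own number. So few pairs cannot exclude a pairing, and unmatched libraries ranged from -0.21 to 0.29. With the replicate block 211 genes were called higher and 280 lower, 491 in place of 1154. In that fit the counts were 0 relatives and 0 cascade genes higher, 0 other ERK targets lower, 3 higher (Plaur, Ereg and Spp1, without Hmga2), 1 FGF gene higher (Flrt2) and 1 lower (Fgf18), and 1 dissociation gene higher (Jund).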

Other observations

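The genes nearest in pattern to Map3k1 and Spry2 were found in the same way as for Dusp6. For Map3k1 they were the collagen gene Col24a1 (distance 0.42), Gatm, an enzyme of creatine synthesis (0.42), the adhesion molecule gene Cadm4 (0.43), Net1, a RHOA exchange factor gene (0.43), and Ctsc, a lysosomal protease gene (0.43), against a median of 1.21 over 6735 genes. All 5 were higher in shBrca2 CAFs, with log2 fold changes from 1.63 to 2.21. For Spry2 they were the nucleoside transporter gene Slc29a1 (distance 0.16), Card10 (0.21), the chemerin receptor gene Cmklr1 (0.21), Calhm2 (0.22) and Ltbp4, which encodes a binding protein of latent TGFβ (0.23), against a median of 0.62. All 5 were lower, with log2 fold changes from -1.27 to -0.76. Each likeness rests on 7 libraries and largely on the difference between the groups.

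Together the 10 ERK feedback genes took 143.9 to 188 CPM (counts scaled to a common library total) in the shControl libraries and 205.8 to 355.8 in the shBrca2 libraries. The genes were put together with this comparison known, so nothing is read from these sums. Of the 10, 3 had a log2 fold change below 0 (Spry1, Spry2 and Spry4).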
